A study of Homo sapiens with 12 samples.

Results

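Lenvatinib was compared with its solvent DMSO in PLC/PRF/5, an established human hepatocellular carcinoma line, over all genes of the deposited count table. The comparison holds the 6 libraries whose labels give this cell line, of the 12 libraries analysed in the series, the other 6 being from the hepatocellular carcinoma line Huh7. All 6 came from wild-type cells per the labels: 3 libraries were from cells given DMSO (DMSO replicates 1 to 3) and 3 from cells given lenvatinib (lenvatinib replicates 1 to 3). The sources used here give neither dose nor length of exposure, and do not say whether replicates were separate cultures; p-values therefore reflect the scatter of these libraries alone, and that scatter may be technical. The study asked how syntaxin 6 (STX6) takes part in resistance to lenvatinib.

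Lenvatinib is an oral kinase inhibitor used against liver cancer that blocks the receptors for VEGF and FGF, PDGFRA, KIT and RET. Signals from such receptors reach the nucleus mainly through the RAS and ERK cascade, whose target genes include ERK's own feedback inhibitors. Liver cells also keep up a stress programme, in which the transcription factor ATF4 raises genes for amino acid synthesis and uptake, and an inflammatory programme, in which NF-kB raises chemokines and STAT3 raises acute phase proteins.

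Total counts were 70236175 to 75278362 per library, and 17201 genes with a mean of at least 0.5 CPM (counts scaled to a common library total) were tested. Lenvatinib and DMSO libraries parted along the leading principal component (33.3% of variance), and no library stood apart on it; on the second (17.4%) DMSO replicate 2 lay farthest out. Marker levels were taken as CPM of library totals. Of 14 hepatocyte markers, 13 had a mean of at least 1 CPM, TTR being the exception at 0.423 CPM. Albumin, the main plasma protein of hepatocytes, was at a mean of 9.16 CPM. The hepatocyte markers summed to 13590 to 14054 CPM with DMSO and 8025 to 8266 CPM with lenvatinib, but members moved both ways: FGA had 253205 to 288589 counts with DMSO and 99925 to 103543 with lenvatinib, and SERPINA1 30230 to 37622 and 48303 to 54055. Of 8 fibroblast markers, 2 reached 1 CPM (summed 11.2 to 15.1 CPM with DMSO and 5.84 to 9.33 CPM with lenvatinib), and of 8 endothelial markers only PECAM1 did, with ERG and TEK at 0 counts (9.03 to 10.7 and 5.70 to 7.74 CPM). Of the 7 leukocyte markers in the table, 3 reached 1 CPM, LYZ and CD68 among them, and the list summed to 79.3 to 82.9 CPM with DMSO and 86.1 to 97.4 CPM with lenvatinib. In bulk RNA, fewer cells of a kind and less RNA per cell cannot be told apart.

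In all, 3100 genes (18% of those tested) passed edgeR's quasi-likelihood test at a Benjamini-Hochberg adjusted p under 0.05. Of these, 1424 (8.28%) rose and 1676 (9.74%) fell. The change was at least 2-fold for 175 of the rises and 263 of the falls, and the median size over all called genes was 0.49 on the log2 scale. The 3 and 3 libraries did not overlap for 39.7% of genes (19.7% with lenvatinib higher, 19.9% with lenvatinib lower). Rises made up 45.9% of the calls with TMM scaling, 60.9% with library totals alone and 59.1% with limma on log2(FPKM + 1). Leaving out 1 library gave 1828 to 2198 calls, the fewest without lenvatinib replicate 3 (1828) and without lenvatinib replicate 1 (1955). All levels below are TMM-scaled CPM, and all changes are given on the log2 scale as estimate ± standard error.

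**Figure D1:**
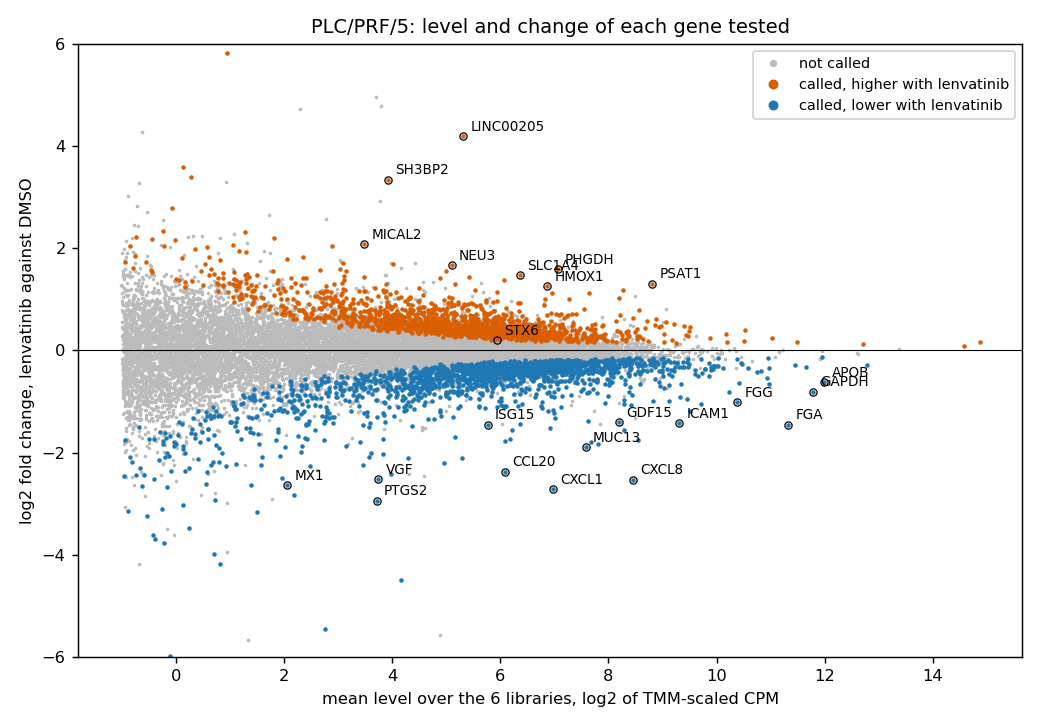
Mean level of each gene tested (log2 of TMM-scaled CPM over the 6 libraries, x axis) against its log2 fold change with lenvatinib (y axis); orange and blue points were called higher and lower at adjusted p under 0.05, and circles mark named genes. The chemokines CXCL1, CXCL8 and CCL20 lie below -2 and LINC00205 above 4, while 15 genes lie beyond the axis.

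Most of the chemokine and cytokine genes tested fell. Of 20 tested genes for chemokines and cytokines, 12 fell and 1 rose, against 9.74% and 8.28% of all genes, and their median change was -0.86 against 0.0076 over all genes; without lenvatinib replicate 3, 8 members were called in all. CXCL8 (interleukin 8), CXCL1 and CXCL2 draw neutrophils, and CCL20 draws cells that carry CCR6. The promoter windows of these 4 genes are shown, since NF-kB is the best known regulator of this family and the windows can be searched for a form of its motif. Each is the RefSeq window of GRCh38.p14 from 250 bases before to 50 bases after the start site, on the gene's own strand, at chr4:73869143-73869442 (CXCL1, plus strand), chr4:74099146-74099445 (CXCL2, minus strand), chr4:73740319-73740618 (CXCL8, plus strand) and chr2:227813592-227813891 (CCL20, plus strand). Capitals mark the letters GGANNTTCC on either strand.
CXCL1: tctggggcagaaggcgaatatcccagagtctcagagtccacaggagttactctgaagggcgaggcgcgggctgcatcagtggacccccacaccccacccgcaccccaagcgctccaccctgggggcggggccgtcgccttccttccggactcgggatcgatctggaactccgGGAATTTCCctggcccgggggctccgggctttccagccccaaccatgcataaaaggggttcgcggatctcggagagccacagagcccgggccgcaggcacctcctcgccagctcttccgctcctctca
CXCL2: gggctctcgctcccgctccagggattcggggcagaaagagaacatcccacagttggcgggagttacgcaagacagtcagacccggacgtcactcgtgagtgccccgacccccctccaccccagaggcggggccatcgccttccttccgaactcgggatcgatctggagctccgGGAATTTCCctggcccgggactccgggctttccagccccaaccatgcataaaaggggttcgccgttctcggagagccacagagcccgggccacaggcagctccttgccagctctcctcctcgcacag
CXCL8: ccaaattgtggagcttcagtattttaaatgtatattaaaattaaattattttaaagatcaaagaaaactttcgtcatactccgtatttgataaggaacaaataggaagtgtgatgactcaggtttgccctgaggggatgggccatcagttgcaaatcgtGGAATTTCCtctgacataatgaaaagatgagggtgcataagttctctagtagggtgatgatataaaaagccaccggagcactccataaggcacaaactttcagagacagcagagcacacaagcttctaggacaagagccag
CCL20: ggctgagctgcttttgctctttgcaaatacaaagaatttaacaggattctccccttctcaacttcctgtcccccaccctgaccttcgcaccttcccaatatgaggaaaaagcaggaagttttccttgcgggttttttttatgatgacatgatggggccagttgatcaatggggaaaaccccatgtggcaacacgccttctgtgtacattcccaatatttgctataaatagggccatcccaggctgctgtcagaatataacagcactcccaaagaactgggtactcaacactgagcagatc
The windows of CXCL1, CXCL2 and CXCL8 hold the same 9 bases, GGAATTTCC, starting 78, 77 and 91 bases before the start site; these letters match the search on both strands and were counted as 1 place. The window of CCL20 holds no match to GGANNTTCC, and NF-kB sites with other letters were not searched for. On the list, 7 of 9 fallen genes with a window held the motif (CXCL1, CXCL2, CXCL3, CXCL5, CXCL6, CXCL8 and IL32) and 0 of 4 members not called did, against 4.56% of 35116 windows and 6.17% of 11365 tested genes. On the NF-kB list described below, the motif stood in 4 of 7 fallen genes with a window, in the 1 that rose and in 7 of 12 not called. The bases around the match are nearly the same in CXCL1 and CXCL2, so windows of related genes are not separate cases. A match is a description of the letters and not a bound site.

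CXCL8 stood at 593, 608 and 605 CPM with DMSO and at 88.3, 120 and 104 CPM with lenvatinib. CXCL1 went from 220, 204 and 231 CPM to 23.3, 41.8 and 34.1 CPM, and CCL20 from 117, 110 and 117 CPM to 15.1, 28.5 and 22.5 CPM. No lenvatinib library reached a DMSO library for any of these genes, and among the lenvatinib libraries replicate 1 was the lowest and replicate 2 the highest in all 3. The log2 fold changes were -2.53 ± 0.11 for CXCL8 (adjusted p = 0.000123), -2.72 ± 0.22 for CXCL1 (adjusted p = 0.00163) and -2.38 ± 0.23 for CCL20 (adjusted p = 0.00233). CXCL2 showed the same order, with 52.5, 48.2 and 52.2 CPM against 6.0, 16.1 and 10.9 CPM (-2.21 ± 0.36, adjusted p = 0.0122), and its call was lost without lenvatinib replicate 3 (adjusted p = 0.0590). CXCL5, another neutrophil chemokine, fell by 1.79 ± 0.09 from a mean of 319 CPM to 92.1 CPM. The exception was CX3CL1 (fractalkine), a membrane-bound chemokine for monocytes and lymphocytes, which rose from 10.4, 10.9 and 11.3 CPM to 16.5, 22.9 and 20.1 CPM (0.87 ± 0.14). CCL28 (-0.14 ± 0.15) and the macrophage growth factor CSF1 (0.36 ± 0.15) were not called. CXCL1 and CXCL2 are near-identical in sequence, so reads of 50 bases may be split between them.

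PTGS2 (cyclooxygenase 2), which makes prostaglandins, also fell. It went from 20.3, 23.3 and 26.0 CPM to 3.02, 2.64 and 3.37 CPM, a change of -2.94 ± 0.16 (adjusted p = 0.000123). TNFSF14 (LIGHT), a TNF family ligand, fell from 27.3, 25.8 and 26.1 CPM to 3.42, 5.72 and 5.69 CPM (-2.42 ± 0.21), and the neuropeptide precursor VGF by 2.52 ± 0.16. Among 24 genes for NF-kB subunits, feedback inhibitors and close targets, 9 fell and 1 rose (median -0.38). The adhesion molecule ICAM1, which binds leukocyte integrins, stood at 975, 923 and 878 CPM with DMSO and at 299, 383 and 348 CPM with lenvatinib (-1.43 ± 0.09, adjusted p = 0.000357). NFKB2, the subunit of the non-canonical pathway, fell by 0.73 ± 0.05, and the feedback inhibitor TNFAIP3 (A20) by 0.68 ± 0.12. NFKBIA, the inhibitor that NF-kB itself induces, was not called (-0.02 ± 0.14, adjusted p = 0.955). BIRC3 was not called either (-0.55 ± 0.34), with DMSO replicate 1 at 264 CPM against 575 and 598 CPM in the other DMSO libraries. The costimulatory receptor TNFRSF9 rose (0.51 ± 0.10).

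Acute phase genes fell in 7 of 16 cases and rose in 1, with a median of -0.11. Serum amyloid A2 (SAA2) stood at 6.53, 6.60 and 6.87 CPM with DMSO and at 0.855, 1.39 and 1.28 CPM with lenvatinib, a change of -2.50 ± 0.24. SAA1 fell by 1.47 ± 0.25 and SAA4 by 1.31 ± 0.26; the SAA genes are close paralogs and share reads. Fibrinogen chains, described below with the hepatocyte genes, were further falls on this list. Ceruloplasmin (CP, -0.18 ± 0.11) and lipocalin 2 (LCN2, 0.18 ± 0.17) were not called. Upstream of this group, the interleukin 6 family signals through gp130 and STAT3. Of 16 genes of this pathway 2 fell (12.5%) and 1 rose (6.25%), near the 9.74% and 8.28% of all genes. Their median was 0.08, with 9 changes above 0 and 7 below. With library totals alone 3 rose. STAT3 went from 230, 215 and 232 CPM to 167, 183 and 174 CPM (-0.37 ± 0.06, adjusted p = 0.00497), and the oncostatin M receptor OSMR fell by 0.71 ± 0.07, while gp130 itself (IL6ST) was not called (-0.10 ± 0.07). Of genes known to respond to this pathway, the transcription factor CEBPD fell by 1.08 ± 0.11 and the glycoprotein LRG1 by 0.99 ± 0.09.

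**Figure D2:**
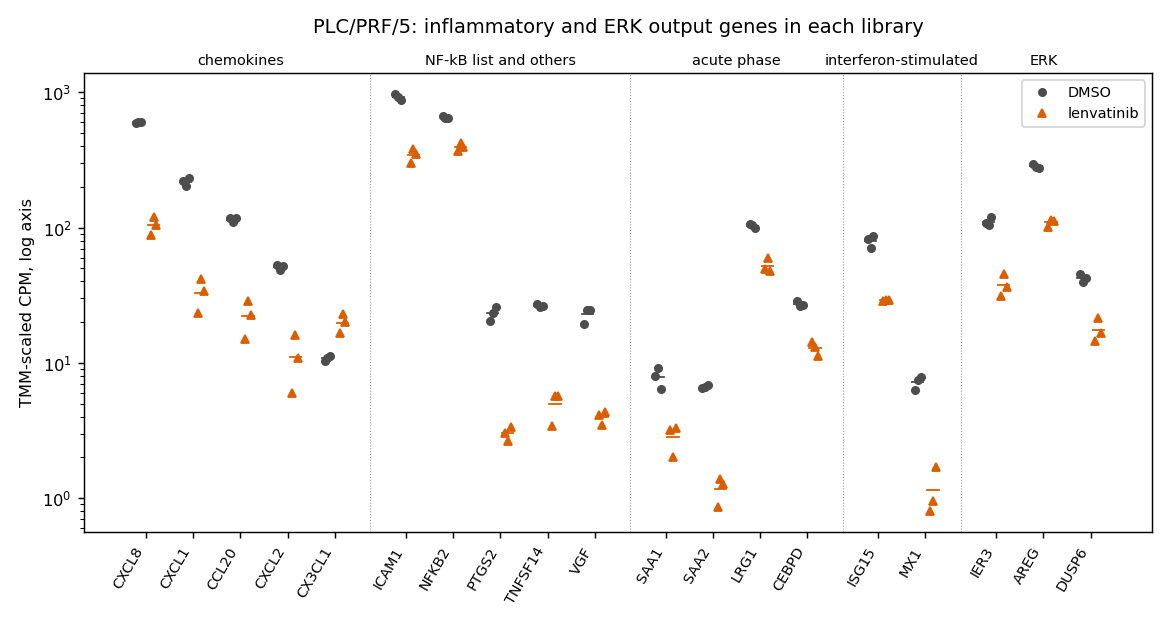
TMM-scaled CPM (log axis) of inflammatory and ERK output genes in each of the 3 DMSO libraries (circles) and 3 lenvatinib libraries (triangles); lines are group means. Every gene shown fell without overlap between the groups, except CX3CL1, which rose.

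Interferon-stimulated genes, which hold back viruses, fell together. Of 34 tested, 19 fell and none rose, and the median was -0.54; with library totals alone 16 fell and 1 rose. ISG15, a ubiquitin-like modifier, is shown with its RefSeq window, chr1:1013247-1013546 on the plus strand of GRCh38.p14, with the letters TTTCNNTTT on either strand in capitals, the core of the element that interferon-activated factors bind.
ISG15: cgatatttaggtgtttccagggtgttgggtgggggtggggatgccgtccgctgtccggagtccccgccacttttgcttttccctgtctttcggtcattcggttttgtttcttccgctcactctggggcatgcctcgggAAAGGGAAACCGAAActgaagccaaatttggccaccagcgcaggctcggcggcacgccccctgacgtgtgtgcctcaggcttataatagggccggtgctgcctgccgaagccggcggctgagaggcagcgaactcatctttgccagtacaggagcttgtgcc
Its 2 matches overlap and start 112 and 106 bases before the start site. Such letters stood in 11 of 13 fallen interferon genes with a window and in 10 of 13 that were not called, against 9.96% of tested genes. ISG15 went from 82.5, 70.8 and 86.2 CPM to 28.7, 29.3 and 29.2 CPM, a change of -1.46 ± 0.09 (adjusted p = 0.000182). The antiviral GTPase MX1 went from 6.26, 7.44 and 7.82 CPM to 0.800, 0.951 and 1.69 CPM (-2.64 ± 0.31). All lenvatinib libraries lay below all DMSO libraries for both genes. IFIT1, which binds viral RNA, fell by 1.08 ± 0.11. IFITM3 was not called (-0.49 ± 0.26), its DMSO replicate 1 being at 455 CPM against 248 and 253 CPM, nor was LGALS3BP (0.11 ± 0.06). In the antigen presentation list, 5 of 20 fell and none rose (median -0.09). They included the proteasome activator subunit PSME2 (-0.69 ± 0.08) and the peptide-loading factor TAPBP (-0.41 ± 0.06), whereas beta-2-microglobulin B2M (0.07 ± 0.12) and HLA-B (-0.01 ± 0.08) were not called.

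The genes closest to the drug's targets came next. Of 10 receptors that lenvatinib inhibits, 4 were abundant enough to test, and the other 6, the 3 VEGF receptors, PDGFRA, KIT and RET, had means of at most 0.396 CPM. FGFR4, the receptor for the bile acid hormone FGF19, was at a mean of 118 CPM with DMSO and 116 CPM with lenvatinib (-0.02 ± 0.07). FGFR3 (0.58 ± 0.19) and FGFR2 (0.62 ± 0.48) were not called, and FGFR1 was called higher (0.28 ± 0.08, adjusted p = 0.0440) but not with any of the 6 libraries left out (adjusted p up to 0.122). KLB (beta-klotho), the coreceptor of FGFR4, fell from 132, 134 and 127 CPM to 83.2, 79.6 and 83.1 CPM (-0.68 ± 0.05, adjusted p = 0.000422). In a wider list of growth factor receptors and ligands 8 of 29 fell and 3 rose, 11 calls that became 5 without lenvatinib replicate 3 and 7 without lenvatinib replicate 1 or 2. On it, amphiregulin (AREG), a ligand of the EGF receptor, fell from 297, 280 and 277 CPM to 101, 114 and 112 CPM (-1.38 ± 0.06), while epiregulin (EREG, -0.23 ± 0.09) was not called. EGFR itself was called higher (0.28 ± 0.06), a call lost without DMSO replicate 2 and without lenvatinib replicates 2 and 3 (adjusted p up to 0.0610).

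ERK output genes fell in 9 of 22 cases and none rose (median -0.40). The early response gene IER3 went from 107, 105 and 121 CPM to 31.2, 45.5 and 36.4 CPM (-1.56 ± 0.14, adjusted p = 0.00116). The ERK phosphatase DUSP6, a feedback inhibitor, went from 45.1, 39.4 and 42.6 CPM to 14.5, 21.4 and 16.5 CPM (-1.28 ± 0.15), and its relative DUSP4 fell by 1.09 ± 0.09. These 3 genes showed no overlap between the groups. The receptor EPHA2 fell by 0.68 ± 0.07. The feedback inhibitor SPRY1 was called lower (-1.11 ± 0.22), a call lost without DMSO replicate 1 (adjusted p = 0.0544). SPRY4 (-0.36 ± 0.11), SPRED2 (-0.18 ± 0.08) and the ETS factor ETV5 (-0.23 ± 0.10) were not called. Cyclin D1 (CCND1) was called at -0.20 ± 0.06 (adjusted p = 0.0485), a call lost under 11 of 16 other settings. The letters of the AP-1 site, TGANTCA, were in 0 of 5 windows of fallen ERK genes and 2 of 9 of those not called.

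In the list of YAP and TEAD genes and in that of TGF-beta signalling, more genes fell than rose. Among 22 YAP and TEAD genes 8 fell and none rose (median -0.20; 5 fell with library totals alone, and 4 were called without lenvatinib replicate 3 and 5 without DMSO replicate 2 or lenvatinib replicate 2). CCN2 (connective tissue growth factor) went from 112, 103 and 102 CPM to 31.9, 27.4 and 32.9 CPM (-1.78 ± 0.09, adjusted p = 9.19e-05), and the muscle ankyrin repeat protein ANKRD1 fell by 2.03 ± 0.13. YAP1 itself was at 219, 230 and 128 CPM with DMSO and 246, 146 and 257 CPM with lenvatinib (0.17 ± 0.33), so its groups overlapped. In the TGF-beta list 13 of 31 fell and 2 rose (median -0.19). The ligand TGFB2 fell by 1.5 ± 0.15 and the BMP target ID1 by 0.92 ± 0.09. Of 40 extracellular matrix genes 10 fell and 2 rose, and with library totals alone 7 fell and 6 rose; 5 to 7 were called in all with any 1 of the 6 libraries left out. Fibronectin (FN1) stood at 1738, 1683 and 1553 CPM with DMSO and 1072, 1053 and 1058 CPM with lenvatinib (-0.64 ± 0.05), while the matrix protein TGFBI rose by 0.43 ± 0.07.

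Epithelial genes of the progenitor and keratin list fell in 8 of 24 cases and none rose (median -0.29; 1 rose with library totals alone). The membrane mucin MUC13 went from 310, 302 and 292 CPM to 70.3, 89.9 and 82.1 CPM (-1.90 ± 0.09, adjusted p = 9.19e-05). KRT18 went from 634, 560 and 610 CPM to 308, 310 and 290 CPM (-0.99 ± 0.06), and its filament partner KRT8 fell by 0.94 ± 0.15. The groups did not overlap for these 3 genes. The surface marker CD24 was not called (-0.39 ± 0.27).

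Many genes for amino acid supply were called higher, most of all ATF4 targets. Of 24 ATF4 targets 16 rose and 2 fell, against 8.28% and 9.74% of all genes, with a median of 0.50. Asparagine synthetase (ASNS) and isoleucyl-tRNA synthetase (IARS1) are shown as examples of promoters with the letters TGATGNAA, the core shared by sites for ATF4 with a C/EBP partner, in capitals. The RefSeq windows of GRCh38.p14 are chr7:97872359-97872658 (ASNS, minus strand, the one of its 2 windows with the match) and chr9:92293648-92293947 (IARS1, minus strand).
ASNS: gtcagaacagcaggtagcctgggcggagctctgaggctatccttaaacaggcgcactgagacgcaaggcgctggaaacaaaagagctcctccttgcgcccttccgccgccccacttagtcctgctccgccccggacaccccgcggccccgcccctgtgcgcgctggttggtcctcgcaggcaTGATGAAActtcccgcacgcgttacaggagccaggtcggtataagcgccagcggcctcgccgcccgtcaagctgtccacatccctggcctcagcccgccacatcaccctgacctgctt
IARS1: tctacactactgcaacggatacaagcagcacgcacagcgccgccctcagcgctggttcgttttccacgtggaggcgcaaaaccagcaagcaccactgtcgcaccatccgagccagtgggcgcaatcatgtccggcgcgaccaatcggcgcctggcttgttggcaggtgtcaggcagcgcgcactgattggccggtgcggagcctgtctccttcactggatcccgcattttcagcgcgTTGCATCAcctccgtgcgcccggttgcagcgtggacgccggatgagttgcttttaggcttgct
The match starts 68 bases before the start site in ASNS and 13 bases before it in IARS1. It stood in 6 of 8 tRNA synthetase genes that rose and have a window (AARS1, CARS1, GARS1, IARS1, MARS1 and NARS1), in 0 of 3 that fell and in 1 of 5 not called, against 2.90% of tested genes. On the ATF4 list it stood in 3 of 14 that rose, 1 of 2 that fell and 2 of 5 not called. For serine and one-carbon genes it stood in 0 of 4 that rose, 0 of 3 that fell and 2 of 9 not called. For amino acid transporters these were 3 of 6, 0 of 2 and 3 of 12.

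ASNS went from 186, 197 and 183 CPM to 490, 401 and 394 CPM, a change of 1.18 ± 0.09 (adjusted p = 0.000408). NIBAN1, a stress-induced protein, went from 14.8, 18.4 and 15.2 CPM to 46.4, 51.4 and 45.1 CPM (1.56 ± 0.11), and mitochondrial PEP carboxykinase PCK2, which also responds to ATF4, rose by 1.02 ± 0.08. Sestrin 2 (SESN2), which restrains mTORC1 when leucine is short, rose by 0.63 ± 0.07, and EIF4EBP1, which holds back translation, by 0.93 ± 0.09. ATF4 itself rose by 0.39 ± 0.06 and its feedback inhibitor TRIB3 by 0.89 ± 0.11. The 2 list members that fell were GDF15, a stress hormone, and HERPUD1, a factor of ER-associated degradation. GDF15 went from 441, 437 and 400 CPM to 161, 165 and 157 CPM (-1.40 ± 0.05, adjusted p = 3.19e-05), which sets it apart in sign from most of the list. DDIT3 (CHOP), a death-promoting factor, was not called (0.18 ± 0.12).

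In serine and one-carbon metabolism 6 of 25 genes rose and 3 fell (median 0.17; 9 and 2 with library totals alone). PHGDH, the first enzyme of serine synthesis, went from 75.1, 65.6 and 59.7 CPM to 189, 199 and 216 CPM (1.59 ± 0.09, adjusted p = 0.000182). PSAT1, the second enzyme, went from 252, 270 and 253 CPM to 667, 612 and 637 CPM (1.31 ± 0.05), whereas PSPH, the third, was not called (-0.04 ± 0.13). The mitochondrial folate enzymes ALDH1L2 (1.42 ± 0.14), MTHFD2 (0.69 ± 0.05) and SHMT2 (0.46 ± 0.06) rose. The cytosolic folate enzyme MTHFD1 fell by 0.35 ± 0.06.

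Amino acid transporters rose in 7 of 25 cases and fell in 2 (median 0.40). The neutral amino acid carrier SLC1A4 went from 41.8, 41.7 and 46.4 CPM to 119, 118 and 125 CPM (1.48 ± 0.07, adjusted p = 7.19e-05). The cystine importer SLC7A11 rose by 1.13 ± 0.10 and the large neutral amino acid carrier SLC43A1 by 0.97 ± 0.06. SLC38A2, a carrier of small neutral amino acids, went the other way, from 630, 681 and 715 CPM to 451, 505 and 467 CPM (-0.51 ± 0.06). Of 20 cytosolic tRNA synthetases, which charge tRNAs with their amino acids, 10 rose and 4 fell (median 0.26; 12 and 1 with library totals alone). AARS1 went from 268, 280 and 276 CPM to 433, 406 and 432 CPM (0.63 ± 0.04), IARS1 rose by 0.61 ± 0.04 and GARS1 by 0.55 ± 0.04. VARS1 fell by 0.25 ± 0.04, while the falls called for HARS1, QARS1 and FARSA were lost with single libraries left out (adjusted p up to 0.122) and with library totals alone.

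Antioxidant genes under NRF2 rose in 20 of 33 cases and fell in 3 (median 0.41). Heme oxygenase HMOX1 went from 73.3, 68.9 and 65.0 CPM to 180, 155 and 159 CPM (1.25 ± 0.08, adjusted p = 0.000182). GCLM, a subunit of the enzyme that limits glutathione synthesis, went from 172, 198 and 209 CPM to 405, 378 and 393 CPM (1.02 ± 0.07). The aldo-keto reductase AKR1C1 rose by 1.05 ± 0.13, with close paralogs that may share its reads, the quinone reductase NQO1 by 0.44 ± 0.05 and the thioredoxin reductase TXNRD1 by 0.45 ± 0.05. NRF2's own gene NFE2L2 was not called (0.02 ± 0.07). The glutathione peroxidase GPX2 fell, from 11.4, 8.73 and 8.55 CPM to 4.26, 4.79 and 3.76 CPM (-1.16 ± 0.18). The ferritin chains parted: the heavy chain FTH1 rose by 0.48 ± 0.05 and the light chain FTL fell from 3856, 3468 and 3487 CPM to 2980, 2741 and 2849 CPM (-0.34 ± 0.05). The iron exporter SLC40A1 rose by 0.58 ± 0.08. The letters TGANNNNGC are the core of the antioxidant response element. Among NRF2 targets with a window they stood in 13 of 17 that rose, 1 of 2 that fell and 2 of 6 not called. They also stood in 51.2% of all tested genes.

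**Figure D3:**
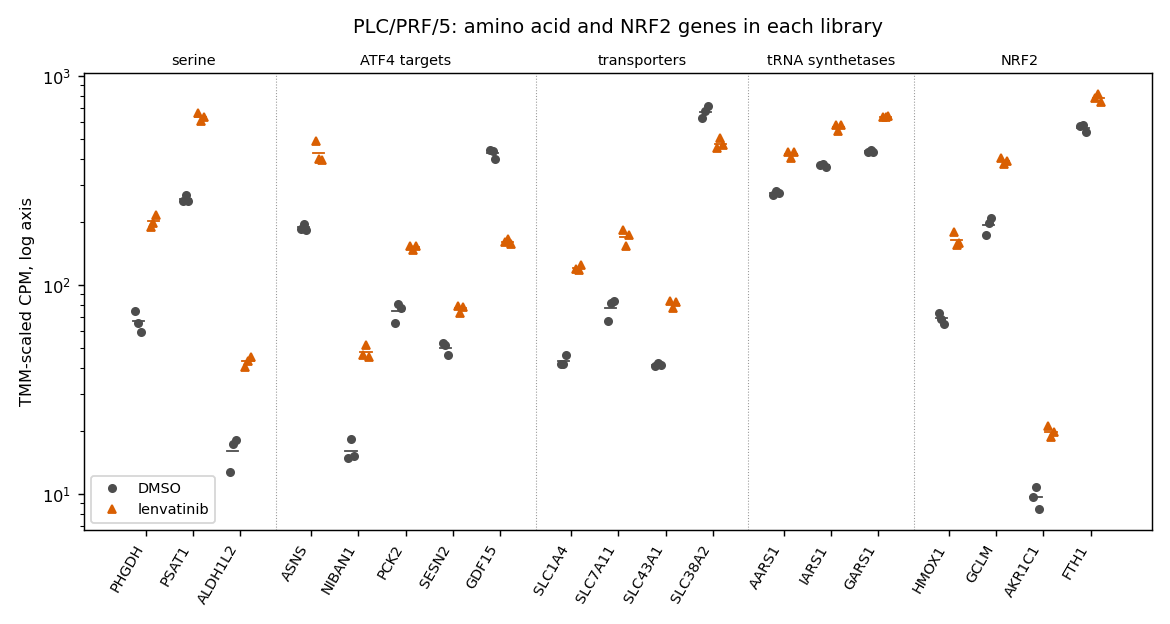
TMM-scaled CPM (log axis) of genes for serine synthesis, ATF4 targets, amino acid transporters, tRNA synthetases and NRF2 targets in each DMSO library (circles) and lenvatinib library (triangles); lines are group means. All genes shown rose without overlap between the groups except GDF15 and SLC38A2, which fell.

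Hepatocyte products did not move one way. Of 23 secreted hepatocyte proteins 4 rose and 4 fell (17.4% each way, median 0.05), against 8.28% and 9.74% of all genes. The fibrinogen chains, which form the clot and belong to the acute phase list, fell together. FGA went from 3960, 3695 and 3639 CPM to 1394, 1349 and 1373 CPM (-1.46 ± 0.04, adjusted p = 1.82e-05), FGB fell by 1.20 ± 0.05 and FGG by 1.02 ± 0.03. APOB, the protein of VLDL particles, went from 4737, 5268 and 4876 CPM to 3044, 3384 and 3197 CPM (-0.63 ± 0.05), and MTTP, which loads APOB with lipid, fell by 0.84 ± 0.07. The urea cycle enzyme CPS1 went from 2484, 2483 and 2372 CPM to 1553, 1545 and 1559 CPM (-0.66 ± 0.03), a call lost in a fit of all 12 libraries. In the other direction, APOE rose by 0.31 ± 0.05 and, in the coagulation list, factor F10 by 0.61 ± 0.10. SERPINA1 (alpha-1-antitrypsin), the acute phase gene that rose, was called higher (0.52 ± 0.10), but not without lenvatinib replicate 1 or 3 (adjusted p up to 0.0553). Of 27 liver transcription factors 2 rose (7.41%) and 3 fell (11.1%), near the shares of all genes. Among them CEBPA rose by 0.75 ± 0.11 and FOXA2 fell by 0.58 ± 0.07.

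Among energy genes, those of glycolysis and of the nuclear part of the respiratory chain had more falls than rises, and the mitochondrial genome went both ways. In the glycolysis and HIF list 21 of 42 fell and 1 rose (median -0.34). GAPDH went from 4601, 4521 and 4361 CPM to 2672, 2359 and 2685 CPM (-0.81 ± 0.05, adjusted p = 0.000253). The glucose transporter SLC2A3 went from 407, 449 and 408 CPM to 201, 206 and 206 CPM (-1.05 ± 0.05), and PDK4, which blocks pyruvate oxidation, fell by 1.11 ± 0.07. These 3 genes showed no overlap between the groups. The HIF targets ANKRD37 (-1.84 ± 0.26) and ANGPTL4 (-0.97 ± 0.13) fell, while TPI1 (-0.59 ± 0.20) and GPI (-0.17 ± 0.08) were not called. PFKL was called higher (0.16 ± 0.05), but not with any of the 6 libraries left out (adjusted p up to 0.141). Of 46 nuclear genes of the respiratory chain 14 fell and 1 rose (median -0.18), and 9 were called in all without lenvatinib replicate 3. COX6B1, a subunit of cytochrome c oxidase, went from 152, 142 and 146 CPM to 71.3, 64.6 and 70.3 CPM (-1.09 ± 0.06), and the complex I subunit NDUFV2 fell by 0.76 ± 0.08. Of 15 transcripts of the mitochondrial genome 3 rose and 4 fell, 7 calls that became 3 without lenvatinib replicate 1 and 4 without DMSO replicate 2 or lenvatinib replicate 3. The ribosomal RNA MT-RNR1 rose by 0.39 ± 0.04, whereas MT-CO3 (-0.28 ± 0.03) and MT-ND1 (-0.29 ± 0.04) fell. These transcripts together took 10.3 to 10.6% of counts with DMSO and 11 to 11.3% with lenvatinib.

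Among genes for protein turnover and folding, proteasome subunits and chaperones of the endoplasmic reticulum had more falls than rises, and heat shock genes more rises than falls. Of 33 proteasome subunits 15 fell and none rose (median -0.21), and 8 fell with library totals alone, 8 without lenvatinib replicate 1 and 9 without DMSO replicate 1. PSMC4 went from 131, 131 and 126 CPM to 95.6, 92.8 and 97.3 CPM (-0.44 ± 0.05) and PSMD1 fell by 0.39 ± 0.04. Among 34 chaperones and sensors of the endoplasmic reticulum 14 fell and 1 rose (median -0.17; 11 and 3 with library totals alone). HSPA5 (BiP), the main one, went from 2361, 2347 and 2292 CPM to 1559, 1645 and 1582 CPM (-0.55 ± 0.03, adjusted p = 0.000182). Its cochaperone DNAJB11 fell by 0.64 ± 0.05, the transcription factor CREB3 by 0.82 ± 0.06 and the retrieval receptor KDELR1 by 0.47 ± 0.05. Calnexin (CANX) was not called (-0.13 ± 0.25), with 1661, 2762 and 2371 CPM against 2410, 2214 and 1580 CPM. Heat shock genes of the cytosol and mitochondria rose in 6 of 30 cases and fell in 1 (median 0.06), with HSPD1 at 0.32 ± 0.03 and HSPA8 not called (-0.35 ± 0.11).

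**Figure D4:**
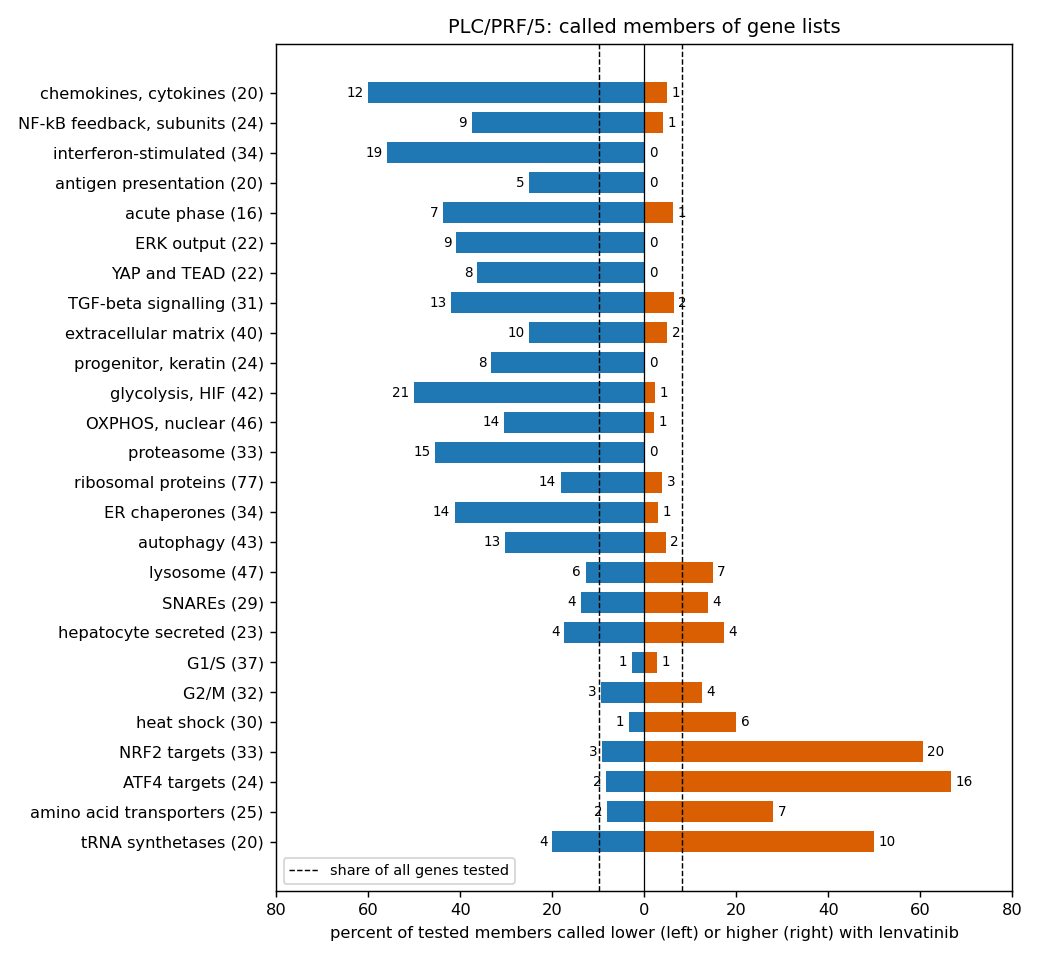
Percent of the tested members of 26 gene lists (number tested in brackets) called lower (blue, left) or higher (orange, right) with lenvatinib at adjusted p under 0.05, with the number called at the end of each bar; dashed lines are the shares of all genes tested, 9.74% and 8.28%. Chemokines, interferon-stimulated genes and glycolysis reach at least 50% on the left, and NRF2 targets, ATF4 targets and tRNA synthetases at least 50% on the right.

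The study's own subject is vesicle fusion and autophagy. STX6, which helps vesicles fuse at the trans-Golgi network, had 5470, 1229 and 5583 counts with DMSO and 6101, 6515 and 2105 counts with lenvatinib. DMSO replicate 2 and lenvatinib replicate 3 were low, and the groups overlapped (0.20 ± 0.72, adjusted p = 0.884; two-sided exact permutation p = 0.5, where 0.1 is the smallest that 3 against 3 libraries allow). A gap of this kind is over 2-fold between 1 library and the other 2 of its group, themselves within 1.25-fold of each other. It was found in 432 of 11837 genes with a mean of at least 5 CPM (3.65%). Of these, 4 were called (0.926%), against 23.6% of the 11837. A gap also widens the scatter that the test uses. Of 29 SNARE genes 4 rose and 4 fell (13.8% each way), against 8.28% and 9.74% of all genes. With any 1 of the 6 libraries left out, 4 or 5 were called in all. STX4, a SNARE of the plasma membrane, went from 60.6, 61.8 and 57.7 CPM to 44.2, 38.4 and 39.4 CPM (-0.56 ± 0.08), and the calls of VAMP8 (-0.47 ± 0.08) and SNAP23 (-0.45 ± 0.06) also held with each library left out. The rise of VAMP4 (0.85 ± 0.17), a partner of STX6 at the trans-Golgi network, was lost without lenvatinib replicate 3 (adjusted p = 0.0528). VAMP3, of recycling endosomes, was not called (-0.16 ± 0.05).

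In the autophagy list 13 of 43 fell and 2 rose (median -0.11), against 7 and 2 with library totals alone and 5 to 9 calls in all with any 1 of the 6 libraries left out. ATG13, a subunit of the kinase complex that starts autophagy, went from 157, 154 and 149 CPM to 84.1, 90.8 and 86.7 CPM (-0.81 ± 0.05, adjusted p = 0.000229). TP53INP2, which brings LC3 out of the nucleus, fell by 0.89 ± 0.05, and the lipid transfer protein ATG2A by 0.45 ± 0.06. The protease ATG4C rose by 0.62 ± 0.12. MAP1LC3B (LC3B, -0.11 ± 0.06) and the receptor NBR1 (-0.33 ± 0.13) were not called, and the fall called for the receptor SQSTM1 (p62, -0.14 ± 0.04) was lost under 11 of 16 other settings. Of 47 lysosomal genes 7 rose (14.9%) and 6 fell (12.8%), against 8.28% and 9.74% of all genes (median 0.00). There were 8 calls in all without DMSO replicate 3 or lenvatinib replicate 1 or 3. Acid glucosidase GAA rose by 0.83 ± 0.09 and alpha-galactosidase GLA fell by 0.50 ± 0.07. The sialidases parted: NEU3, of the plasma membrane, went from 15.1, 17.4 and 16.7 CPM to 49.8, 54.8 and 52.4 CPM (1.67 ± 0.09, adjusted p = 0.000123), while the lysosomal NEU1 fell from 167, 161 and 160 CPM to 125, 129 and 119 CPM (-0.39 ± 0.05).

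Few G1/S genes were called. Of 37 tested, 1 rose and 1 fell (2.70% each way), against 8.28% and 9.74% of all genes. Of 32 G2/M genes 4 rose (12.5%) and 3 fell (9.38%). With library totals alone 5 G1/S genes rose and 0 fell, and 6 G2/M genes rose and 1 fell. Leaving out 1 library gave 1 to 3 calls for G1/S and 2 to 5 for G2/M. The replication helicase subunit MCM3 went from 134, 134 and 136 CPM to 189, 179 and 199 CPM (0.49 ± 0.05, adjusted p = 0.00167), while MCM7 was not called (-0.11 ± 0.06). The topoisomerase TOP2A rose by 0.32 ± 0.06 and the mitotic kinesin KIF20A fell by 0.53 ± 0.08. The call of the proliferation marker MKI67 (-0.23 ± 0.06) was lost with 5 of the 6 libraries left out in turn (adjusted p up to 0.0884) and with library totals alone. Among regulators of cell death, the survival protein BCL2L1 went from 266, 230 and 246 CPM to 149, 148 and 170 CPM (-0.67 ± 0.08).

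Other genes with large changes belonged to none of these groups. The long non-coding RNA LINC00205 gave the largest called rise without overlap among genes with a mean of at least 5 CPM, from 4.47, 3.56 and 4.34 CPM to 72.8, 86.6 and 66.8 CPM (4.19 ± 0.14, adjusted p = 2.57e-05). The adaptor SH3BP2 went from 3.38, 1.79 and 2.98 CPM to 22.7, 25 and 34.8 CPM (3.34 ± 0.29), and the actin-oxidising enzyme MICAL2 rose by 2.08 ± 0.26. TSEN15, a subunit of the tRNA splicing endonuclease, rose by 1.45 ± 0.14. The long non-coding RNA UCA1 fell by 2.10 ± 0.16 and ornithine decarboxylase ODC1, which limits polyamine synthesis, by 0.82 ± 0.04 from 1533, 1493 and 1585 CPM to 826, 898 and 882 CPM. The rise of SMN2 (2.05 ± 0.22) is uncertain, as its near-identical copy SMN1 was at -0.45 ± 0.14 (not called) and shares its reads. Genes with 0 counts in all libraries of a group gave no stable contrast: SFT2D3 had 983 counts in lenvatinib replicate 1 and 0 in the other 5 libraries.

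The difference between the lines was tested in a fit of all 12 libraries, over 17978 genes. The change with lenvatinib differed from that in Huh7 for 2254 genes (12.5%), being higher in PLC/PRF/5 for 1167 (6.49%) and lower for 1087 (6.05%). Of the 3083 genes called in PLC/PRF/5 that this fit holds, 1006 differed. Of those, 137 rose in PLC/PRF/5 and fell in Huh7, and 140 fell in PLC/PRF/5 and rose in Huh7. The direction was shared with Huh7 by 481 rises and 574 falls, and the size of the change differed for 77 and 101 of them.

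By group, the differences went mostly 1 way in some lists and both ways in others, against 6.49% of all genes higher and 6.05% lower in PLC/PRF/5. Of 33 interferon-stimulated genes the change was lower in PLC/PRF/5 for 20 and higher for 1, and 17 of the genes rose in Huh7, where 10.2% of all genes rose and 11.9% fell. For ISG15 the difference was -2.09 ± 0.12 (adjusted p = 4.35e-06) and for MX1 -4.85 ± 0.73. Of 20 chemokine and cytokine genes the change was lower in PLC/PRF/5 for 4 and higher for 1. Differences were called for CCL20 (-3.45 ± 0.54), CXCL2 (-3.69 ± 0.51) and CXCL8 (-2.30 ± 0.28). CXCL1 fell in both lines and its difference was not called (-0.63 ± 0.36). ERK output changed less in PLC/PRF/5: the change was higher there for 12 of 22 genes and lower for 2, as for DUSP6 (3.69 ± 0.25) and ETV5 (4.60 ± 0.17). The same held for G1/S genes (27 of 37 higher in PLC/PRF/5, 0 lower), of which 27 fell in Huh7. Of 24 ATF4 targets the change was higher in PLC/PRF/5 for 4 and lower for 4. Of 25 serine and one-carbon genes it was higher for 7 and lower for 3. It was higher for 2 of 24 amino acid transporters and lower for 0, and for tRNA synthetases higher for 4 of 20 and lower for 1. Single genes that rose more in PLC/PRF/5 were SLC1A4 (1.19 ± 0.10), PHGDH (0.72 ± 0.15) and PSAT1 (0.58 ± 0.13). The differences of ASNS (0.07 ± 0.13) and PCK2 (0.03 ± 0.16) were not called. Of 33 NRF2 targets the change was lower in PLC/PRF/5 for 11 and higher for 4, while the differences of HMOX1 (-0.13 ± 0.13) and GCLM (0.05 ± 0.13) were not called. GDF15 and KLB rose in Huh7, and their differences were -2.31 ± 0.24 and -1.41 ± 0.13.

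**Figure D5:**
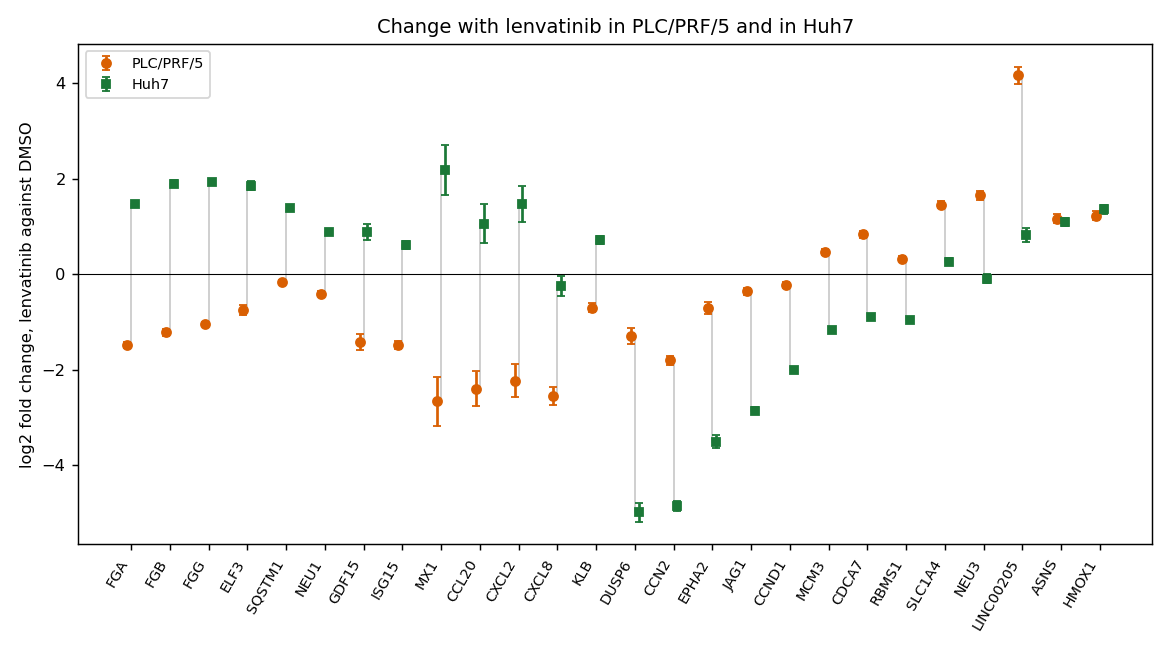
Log2 fold change with lenvatinib in PLC/PRF/5 (circles) and Huh7 (squares) from a fit of all 12 libraries, 3 per group, with standard errors as bars, for genes named in the text. The fibrinogen chains FGA, FGB and FGG fell in PLC/PRF/5 and rose in Huh7, DUSP6 and CCN2 fell further in Huh7, and ASNS and HMOX1 rose in both.

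Exons of AHR, ALDH1L2, ANGPTL4, ANKRD37, APOB, APOE, ASNS, ATG13, BCL2L1, CANX, CCND1, CD68, CEBPA, CP, CREB3, CXCL6, DDIT3, DNAJB11, DUSP6, EGFR, ELF3, ETV5, F10, FARSA, FGFR1, FOXA2, FTH1, GAPDH, GAS5, GPI, HLA-B, HSPA8, HSPD1, ICAM1, IER3, IFITM3, IL32, IL6ST, ISG15, JAG1, KIF20A, KRT18, KRT8, LRG1, LYZ, MAP1LC3B, MCM7, MICAL2, MT-CO3, MTHFD1, MTHFD2, MTTP, MX1, NBR1, NDUFV2, NFE2L2, NQO1, OSMR, PSMD1, PSME2, RBMS1, SAA1, SAA2, SAA4, SFT2D3, SHMT2, SLC7A11, SMARCA2, SNAP23, SQSTM1, STX6, TGFB2, TNFAIP3, TPI1, UCA1, UGT1A1 and YAP1 overlap exons of another annotated gene in GENCODE 29, on the same or the other strand. The sources used here do not state the strand setting of the authors' counting. Reads within the overlapping stretches may therefore belong to either gene, and the length of these stretches was not measured.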

How the data were processed

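RNA-seq of PLC/PRF/5 cells, 3 libraries with DMSO and 3 with lenvatinib, was read from the table the authors deposited, which holds a raw count and an FPKM value per gene and library per the file headers. Reads were 50 bases, single-end, per the labels, and were aligned with HISAT2 to hg19 per the submitters' processing notes; for versions, annotation and strand setting, the sources used here give nothing. The FPKM values were used only as an alternative, since the deposited FPKM of STX6 disagree with its counts, and 12 sample columns matched to no sample here were not used. The table has 40825 lines; 1399 tested lines share a symbol.

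Genes with a mean of at least 0.5 CPM were tested on counts with edgeR 4.0.16 (TMM, robust quasi-likelihood F test, Benjamini-Hochberg threshold 0.05) in R 4.3.3. The difference from Huh7 was an interaction in a fit of all 12 libraries. Standard errors were the log2 fold change divided by the square root of F. Totals of 70236175 to 75278362 counts leave a counting error of 10% at 100 counts, and this covers counting error only. The procedure was tested on simulated data. Alternatives used limma 3.58.1, DESeq2 1.42.0, other filters and scalings, a replicate block and each library left out. Exon overlaps came from GENCODE 29. Promoter windows came from RefSeq (GRCh38.p14), another build than the files', and were matched by symbol.

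Named genes were the 15 largest called rises and falls without overlap and with a mean of at least 5 CPM, the 10 largest changes in CPM each way, up to 4 called members each way and 2 not called per list, STX6, and up to 6 each way for the difference from Huh7; the text describes part of them. ATF4, CARS1, CXCL3, CXCL5, CXCL6, DDIT3, FGFR2, FGFR3, FGFR4, HLA-B, IFIT1, IL32, MARS1, MTHFD2, NARS1, NFE2L2, NFKBIA, NQO1, PSPH, SHMT2, SMN1, SPRY4 and TRIB3 were chosen after their values were seen. The lists and members were chosen with earlier results of these data known. Nothing in the labels says that replicates were separate cultures.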

Additional observations from a re-analysis of the deposited data

Results flagged for a closer look

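These results were picked out because the change with lenvatinib differed between PLC/PRF/5 and Huh7 in edgeR's test of the difference itself, in a fit of all 12 libraries. The changes of 6 genes were higher in PLC/PRF/5: the Notch ligand JAG1 by 2.50 ± 0.10 (log2, adjusted p = 1.73e-07), the matricellular protein CCN2 by 3.05 ± 0.14, cyclin D1 (CCND1) by 1.79 ± 0.08, the proliferation gene CDCA7 by 1.74 ± 0.10, the replication factor MCM3 by 1.64 ± 0.09 and the RNA-binding protein RBMS1 by 1.28 ± 0.08. All 6 fell in Huh7, whereas MCM3, CDCA7 and RBMS1 rose in PLC/PRF/5.

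The changes of 6 others were lower in PLC/PRF/5: FGB by -3.11 ± 0.10, FGG by -2.96 ± 0.06 (adjusted p = 5.86e-10), FGA by -2.94 ± 0.08, the epithelial transcription factor ELF3 by -2.60 ± 0.14, the autophagy receptor SQSTM1 by -1.55 ± 0.06 and the sialidase NEU1 by -1.29 ± 0.07. All 6 rose in Huh7.

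The deposited FPKM of STX6, which the test on counts does not use, had a mean of 42.2 ± 1.49 with lenvatinib and 9.41 ± 0.959 with DMSO (SD, n = 3 each), while the counts of the same libraries overlapped between the groups. The files do not say which of the values is right, and the cause was not tested.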

How the results depend on the processing

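The 3100 calls became 4133 with DESeq2's Wald test, 2155 with a replicate block, and 1828 to 2198 with 1 library left out (1955 without lenvatinib replicate 1, 1828 without lenvatinib replicate 3); fewer libraries enter those fits. Of the 3100, 1315 were called under all 16 alternatives. The 2254 differences from Huh7 became 3235 with DESeq2 and 1639 with the replicate block, and 1764 to 2261 with 1 library left out. Leaving out genes with a gap in a single library, an alternative chosen after seeing the data, left 3068 calls. Libraries with the same number did not deviate together (correlations -0.00668, 0.0117 and -0.00915), so the numbers were not taken as pairs. The log2 change of STX6 was 0.20 on counts and 0.29 with the replicate block, ranged from -0.23 to 0.56 with 1 library left out (-0.23 without DMSO replicate 2, -0.0032 without lenvatinib replicate 1, -0.030 without lenvatinib replicate 2), and was 2.06 with limma on log2(FPKM + 1), where it passed the test; the cause was not tested. Besides STX6, 8 named genes that were not called changed sign under some setting. With library totals alone the changes of FGFR4, HLA-B, NFKBIA and PSPH were 0.043, 0.048, 0.046 and 0.017, and with limma on log2(FPKM + 1) they were 0.042, 0.051, 0.033 and 0.0083. NFE2L2 was at -0.0012 in the fit of all 12 libraries. With 1 library left out, B2M ranged from -0.0092 to 0.19, CANX from -0.31 to 0.034, FGFR4 from -0.081 to 0.016, HLA-B from -0.086 to 0.036, NFE2L2 from -0.021 to 0.079, NFKBIA from -0.17 to 0.11, PSPH from -0.15 to 0.086 and YAP1 from -0.059 to 0.39. Low counts limit genes near 0.5 CPM.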

Other observations

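Of 28 genes of drug metabolism 1 rose (3.57%) and 2 fell (7.14%). Of 17 drug and bile acid transporters 3 rose (17.6%) and 2 fell (11.8%), and 1 to 3 were called with 1 library left out. The bilirubin-conjugating enzyme UGT1A1 fell by 1.07 and the aryl hydrocarbon receptor AHR by 0.82 on the log2 scale. Host genes of small nucleolar RNAs rose in 4 of 25 cases (16%) and fell in 1 (4%), with GAS5 at 0.82. Of all genes tested, 8.28% rose and 9.74% fell. The chromatin remodelling ATPase SMARCA2 rose by 0.74. Among 24 SWI/SNF genes 3 rose (12.5%) and 1 fell (4.17%), against the same shares of all genes. With library totals alone 5 rose and 0 fell. In all, 2 were called without DMSO replicate 1, 2 or 3 or lenvatinib replicate 3.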
